A study of Rattus norvegicus with 6 samples.

Results

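The genes described here encode the adhesion and anchoring proteins of the node of Ranvier and the paranode: Nfasc, Cntn1, Cntn2, Cntnap1, Cntnap2, Nrcam, L1cam, Gldn, Ank3 and Sptbn4. They were taken by exact gene symbol, and 9 of the 10 symbols matched a row among 34106 genes, while Cntnap2 was not analysed here. The RNA came from the inferior alveolar nerve (IAN), which carries sensation from the teeth, chin and lower lip, of male Sprague-Dawley rats bought at 6 to 7 weeks of age. In the 3 IANX samples jaw bone had been ground away over the IAN and the mental nerve and both nerves cut, leaving a 1 mm gap with no suture (the labels enter this treatment as transfection), and in the 3 Sham samples the methods name incision of cheek skin and masseter muscle only, so whether bone was removed there is not given. All 6 samples were taken at day 14 and were biological replicates, so the spread between them is that between animals as far as the methods state it.

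Nodes of Ranvier are the short gaps between myelin segments at which voltage-gated sodium channels are packed. In peripheral nerve, gliomedin (Gldn) from Schwann cell microvilli binds the axonal form of neurofascin (Nfasc) and NrCAM, and ankyrin-G (Ank3) with beta-IV spectrin (Sptbn4) anchors these proteins and the channels to the axon's skeleton. At the flanking paranode the axonal pair contactin-1 (Cntn1) and Caspr (Cntnap1) holds the glial form of neurofascin, and further out, at the juxtaparanode, contactin-2 (Cntn2) takes part in the complex that holds potassium channels. The cell bodies of the axons lie in the trigeminal ganglion, outside the nerve. Gene counts do not separate the glial and axonal forms of neurofascin, nor the forms of ankyrin-G.

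Each library held 13988750 to 16440720 counted reads in IANX and 14630127 to 17105402 in Sham. Levels are given as CPM (counts scaled to a common library size, with TMM, edgeR's correction for library makeup) or, between genes, as the deposited FPKM, which also divides by gene length. Differences were tested by edgeR's quasi-likelihood test with Benjamini-Hochberg adjustment over 15374 genes, a gene being called at an adjusted p under 0.05, and fold changes are log2 of IANX over Sham. The median over all genes tested was 0.08. The IANX libraries were unlike each other in their makeup. The summed level of 8 tooth markers was 56081, 1949 and 60762 CPM in IANX 1, 2 and 3, against 147, 874 and 128 CPM in Sham 1, 2 and 3, and Amelx, an enamel matrix gene, was at 35904, 1145 and 38351 CPM in IANX, against 91.3, 692 and 77.3 CPM in Sham. The summed level of 7 myelinating Schwann cell markers was 1908, 7958 and 3962 CPM in IANX, against 78383, 83904 and 73532 CPM in Sham. Sox10, S100b and Erbb3, genes of the Schwann cell lineage, lay lowest in IANX 1 and highest in IANX 2 of the injured nerves, with S100b at 151, 828 and 183 CPM in IANX, against 3547, 3773 and 3531 CPM in Sham. Summed axonal transcripts were at 161, 360 and 267 CPM in IANX, against 440.3, 637 and 811 CPM in Sham. Sncg, gamma-synuclein, carried that difference, at 25.5, 142 and 56.1 CPM in IANX, against 295, 461 and 675 CPM in Sham. Without Sncg, a gene singled out after its values were seen, the sums were 136, 218 and 211 CPM in IANX, against 145, 176 and 137 CPM in Sham, and the groups overlapped. Of 9 axonal genes tested, 4 were lower in IANX, 1 was higher and 4 were not called. Over all genes tested, 16.6% were called lower and 17.8% higher. Beside Sncg, Prph (log2 fold change -2.43, edgeR adjusted p = 0.00799) and Stmn2 (-2.17, edgeR adjusted p = 0.0295) were lower. So was Snap25 (-4.05, edgeR adjusted p = 0.0105), with at most 34 counts in a sample. Nefl, the light neurofilament, was higher in IANX (log2 fold change 2.55, edgeR adjusted p = 0.0117) and Nefm, the medium one, was not called (1.28, edgeR adjusted p = 0.126). Of 8 genes of neuron cell bodies, 6 were under the filter. In bulk RNA, fewer cells of a type and less RNA per cell cannot be told apart.

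Of the 9 genes, 5 were lower in IANX (Nfasc, Gldn, Nrcam, L1cam and Ank3), none was higher, 3 were not called (Cntn2, Cntnap1 and Sptbn4), and Cntn1 fell below edgeR's filter on low counts. No gene of the 8 tested was higher at an unadjusted p under 0.05 either. Over all genes tested, 16.6% were called lower and 17.8% higher. The 8 genes tested had a median log2 fold change of -1.37. With DESeq2 or without the filter, where Cntn1 enters the test, 1 gene was called higher. In 6 of the 9 genes every IANX sample lay below every Sham sample, which held for 24.5% of all genes tested. Those 6 were the 5 called lower and Cntn2, as the plot of levels by sample shows.

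**Figure D1:**
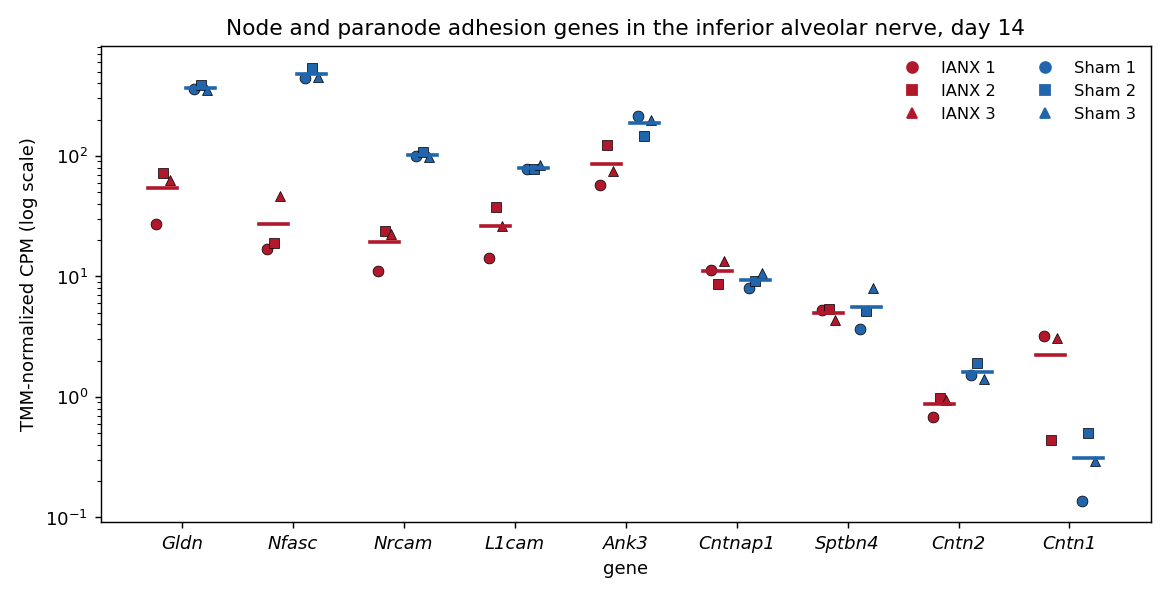
CPM on a log axis of the 9 node and paranode genes in the 3 IANX and 3 Sham samples, 1 point a sample, with the group mean as a line. Nfasc lay at 17.0 to 46.2 CPM in IANX and 443 to 541 CPM in Sham, while Cntnap1 and Sptbn4 overlapped between the groups.

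The sequence around the annotated start was read for 6 of the 9 genes from RefSeq (GRCr8, 250 bases before to 50 after the start), and 3 are shown for the genes with the largest decreases, Nfasc and Gldn, and for Sptbn4, which was not called. Capitals mark CG dinucleotides, and GRCr8 differs from the rn6 build of the counts. Nfasc (most upstream of 2 entries, minus strand, chr13:46701115-46701414), Gldn (plus strand, chr8:63575020-63575319) and Sptbn4 (minus strand, chr1:91864791-91865090) read as follows.
Nfasc: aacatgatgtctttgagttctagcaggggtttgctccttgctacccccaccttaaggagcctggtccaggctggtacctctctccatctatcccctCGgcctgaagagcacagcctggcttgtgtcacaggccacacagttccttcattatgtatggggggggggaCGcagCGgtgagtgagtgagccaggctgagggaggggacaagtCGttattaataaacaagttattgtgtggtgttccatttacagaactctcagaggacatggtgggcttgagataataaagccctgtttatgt
Gldn: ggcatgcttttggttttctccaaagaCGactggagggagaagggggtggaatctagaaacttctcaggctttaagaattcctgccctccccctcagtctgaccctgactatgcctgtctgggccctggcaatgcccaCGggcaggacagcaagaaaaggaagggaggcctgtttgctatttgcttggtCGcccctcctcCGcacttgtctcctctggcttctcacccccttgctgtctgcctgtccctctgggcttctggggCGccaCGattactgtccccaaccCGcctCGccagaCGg
Sptbn4: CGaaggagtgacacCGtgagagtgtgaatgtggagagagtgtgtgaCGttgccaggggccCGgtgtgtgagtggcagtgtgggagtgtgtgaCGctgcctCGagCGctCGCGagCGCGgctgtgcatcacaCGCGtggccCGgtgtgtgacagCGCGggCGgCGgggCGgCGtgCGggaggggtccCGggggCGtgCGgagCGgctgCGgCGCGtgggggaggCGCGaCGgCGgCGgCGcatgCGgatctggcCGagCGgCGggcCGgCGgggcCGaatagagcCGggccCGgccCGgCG
The Sptbn4 window held 45 CG dinucleotides, a number reached by 1.66% of 33469 promoters, against 4 in Nfasc and 9 in Gldn. The median of all promoters was 7. Neither ACAAAG nor ACAATG, both searched on both strands, was found in any of the 6 windows, while 29.1% of all promoters held 1 or the other. TATAAA was found in none of the 6 and in 14.2% of all, and GGGCGG in Sptbn4 alone and in 33.1% of all.

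Neurofascin showed the largest decrease of the genes called. Nfasc (ENSRNOG00000030515, rn6 chromosome 13, 49335408 to 49522415, minus strand) had 300, 346 and 780 counts in IANX 1, 2 and 3, against 6420, 6499 and 6143 counts in Sham 1, 2 and 3. Scaled, it averaged 27.4 ± 16.4 CPM in IANX and 479 ± 53.9 CPM in Sham (SD, n = 3 each), with IANX 3 at 46.2 CPM the highest of the injured nerves and still far below each Sham sample. The log2 fold change was -4.13 ± 0.43 (SE, edgeR adjusted p = 0.000951), and 97 of 15374 genes had a more negative value. Without IANX 3 it was -4.74.

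Its binding partners at the node were lower too, by smaller fold changes. Gldn (ENSRNOG00000024082, rn6 chromosome 8, 58870516 to 58914603, plus strand), the secreted gliomedin, stood at 27.2, 72.0 and 63.7 CPM in IANX, against 362, 387 and 349.5 CPM in Sham. Its means were 54.3 ± 23.8 CPM in IANX and 366 ± 19.1 CPM in Sham, a log2 fold change of -2.75 ± 0.36 (edgeR adjusted p = 0.00207). IANX 1 was the lowest of the injured nerves. Nrcam (ENSRNOG00000004067, rn6 chromosome 6, 64789940 to 64864996, plus strand), the axonal and Schwann cell receptor for gliomedin, stood at 11.2, 23.8 and 22.7 CPM in IANX, against 99.8, 107 and 98.5 CPM in Sham. That is 19.2 ± 6.99 CPM in IANX and 102 ± 4.69 CPM in Sham, a log2 fold change of -2.41 ± 0.29 (edgeR adjusted p = 0.00158).

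L1cam, a further member of the L1 family of adhesion molecules with Nfasc and Nrcam, and carried by non-myelinating Schwann cells and thin axons, was also lower. L1cam (ENSRNOG00000061230, rn6 chromosome X, 156909913 to 156928057, plus strand) stood at 14.3, 37.7 and 26.4 CPM in IANX, against 77.9, 78.4 and 84.2 CPM in Sham, with a log2 fold change of -1.62 ± 0.32 (edgeR adjusted p = 0.00965). In Gldn, Nrcam and L1cam alike, IANX 1 was the lowest of the 3 injured nerves and IANX 2 the highest. Sox10 had the same order among them, and its part in these values was not tested. Nfasc had another order, with IANX 3 highest.

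Of the anchoring proteins, Ank3 was lower and Sptbn4 was not called. Ank3 (ENSRNOG00000053288, rn6 chromosome 20, 20105047 to 20480623, plus strand) stood at 57.6, 123 and 75.3 CPM in IANX, against 213, 147 and 201 CPM in Sham, so that the highest injured nerve lay under the lowest Sham nerve. Its log2 fold change was -1.13 ± 0.30 (edgeR adjusted p = 0.0244), the weakest call of the 5, and it was lost when any library but IANX 2 was left out. The edgeR adjusted p was 0.0543 without IANX 1 and 0.0819 without IANX 3. It was 0.0825 without Sham 1, 0.0534 without Sham 2 and 0.0872 without Sham 3. Scaling by library sizes only gave -0.70 (edgeR adjusted p = 0.0787). Sptbn4, the gene with the CG-rich start (ENSRNOG00000055371, rn6 chromosome 1, 84168495 to 84254645, minus strand) stood at 5.26, 5.34 and 4.33 CPM in IANX, against 3.66, 5.16 and 8.05 CPM in Sham. The groups overlapped, and its log2 fold change of -0.18 ± 0.35 (edgeR adjusted p = 0.723), with a 95% interval of -0.99 to 0.64, turned to 0.26 with library sizes only and to 0.16 without Sham 3.

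The paranode gene Cntnap1 and the juxtaparanode gene Cntn2 were detected at low levels. Cntnap1 (ENSRNOG00000020277, rn6 chromosome 10, 89089646 to 89103614, plus strand) had 199, 159 and 225 counts in IANX, against 117, 110 and 146 counts in Sham, or 11.1 ± 2.34 CPM in IANX and 9.34 ± 1.36 CPM in Sham. The groups overlapped and the log2 fold change was 0.25 ± 0.25 (edgeR adjusted p = 0.471), with a 95% interval of -0.34 to 0.83. Cntn2 (ENSRNOG00000009033, rn6 chromosome 13, 49285310 to 49313940, minus strand), the neighbour of Nfasc on the same strand at a distance of 21467 bases, had 12, 18 and 16 counts in IANX, against 22, 23 and 19 counts in Sham. Its log2 fold change was -0.88 ± 0.39 (edgeR adjusted p = 0.115), and although the groups did not overlap in CPM the difference did not pass the test.

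Cntn1 and Cntnap1 were the genes of the 9 with a higher mean CPM in IANX than in Sham, and Cntn1 split the injured nerves. Cntn1 (ENSRNOG00000004438, rn6 chromosome 7, 133400485 to 133586677, plus strand) had 57, 8 and 52 counts in IANX 1, 2 and 3, against 2, 6 and 4 counts in Sham 1, 2 and 3. IANX 2 overlapped Sham at 0.436 CPM, against 0.500 CPM in Sham 2, while IANX 1 and IANX 3 stood at 3.23 and 3.08 CPM. Without the filter edgeR gave a log2 fold change of 2.83 (adjusted p = 0.0401), DESeq2 gave 2.81 (adjusted p = 0.011), and without IANX 2 it was 3.30 (edgeR adjusted p = 0.00328). Leaving out Sham 1, Sham 2 or Sham 3 also brought it past the filter, with edgeR adjusted p of 0.126, 0.092 and 0.125, so the call did not hold there. The split was not particular to Cntn1, as genes under the filter and singled out after their values were seen show. The sodium channel gene Scn1a had 278, 3 and 376 counts in IANX, against 2, 0 and 0 in Sham. The paralog Cntn3 had 234, 10 and 56 in IANX, against 8, 2 and 1 in Sham. Scn11a, by contrast, had 0 counts in every IANX sample and 0, 1 and 7 in Sham, near the floor in both groups. IANX 1 and IANX 3 were also the samples with the high tooth marker sums, and the neuronal nuclear gene Rbfox3 had 10, 3 and 41 counts in IANX, against 2, 7 and 0 counts in Sham. The part of either in the Cntn1 counts was not tested.

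Per length, the order of the genes differed between the groups. In IANX the highest FPKM were Gldn at 22.4 ± 10.1, Ank3 at 8.03 ± 3.34 and L1cam at 4.40 ± 2.04, followed by Nfasc at 2.55 ± 1.5, Nrcam at 2.47 ± 0.919 and Cntnap1 at 2.02 ± 0.396 (SD, n = 3). In Sham they were Gldn at 155 ± 9.12, Nfasc at 46.2 ± 5.49, Ank3 at 18.0 ± 3.29, L1cam at 13.8 ± 0.547 and Nrcam at 13.4 ± 0.706, with Cntnap1 at 1.76 ± 0.252. In IANX the only neighbours in the order whose samples did not overlap were Cntnap1 and Sptbn4 (0.560 ± 0.070). In Sham only Ank3 and L1cam, and L1cam and Nrcam, overlapped. Cntn2 and Cntn1 came last in both groups, at 0.17 ± 0.0341 and 0.557 ± 0.386 in IANX and at 0.324 ± 0.0561 and 0.0801 ± 0.0472 in Sham.

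As a share of the 9 genes' summed FPKM, Nfasc made up 6.21, 3.22 and 8.86% in IANX 1, 2 and 3, against 17.4, 20.0 and 18.1% in Sham 1, 2 and 3. Gldn made up 43.7, 54.1 and 53.7% in IANX, against 62.5, 62.9 and 61.2% in Sham. Ank3 took 21.1, 21.0 and 14.5% in IANX, against 8.37, 5.44 and 8.0% in Sham, while the share of Nrcam was 5.59, 5.56 and 5.96% in IANX and 5.36, 5.42 and 5.37% in Sham. L1cam took 9.34, 11.5 and 9.07% in IANX, against 5.47, 5.18 and 5.99% in Sham, and Cntnap1 took 8.06, 2.90 and 5.0% in IANX, against 0.620, 0.662 and 0.839% in Sham. The shares of Nfasc and Gldn were smaller in every IANX sample than in every Sham sample, and those of the other 7 genes, Sptbn4, Cntn1 and Cntn2 included, were larger. The shares of a sample add up to the whole, so smaller shares of Nfasc and Gldn by themselves make the others larger in sum. A larger share is not a higher level, and Nrcam, L1cam and Ank3 were called lower.

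**Figure D2:**
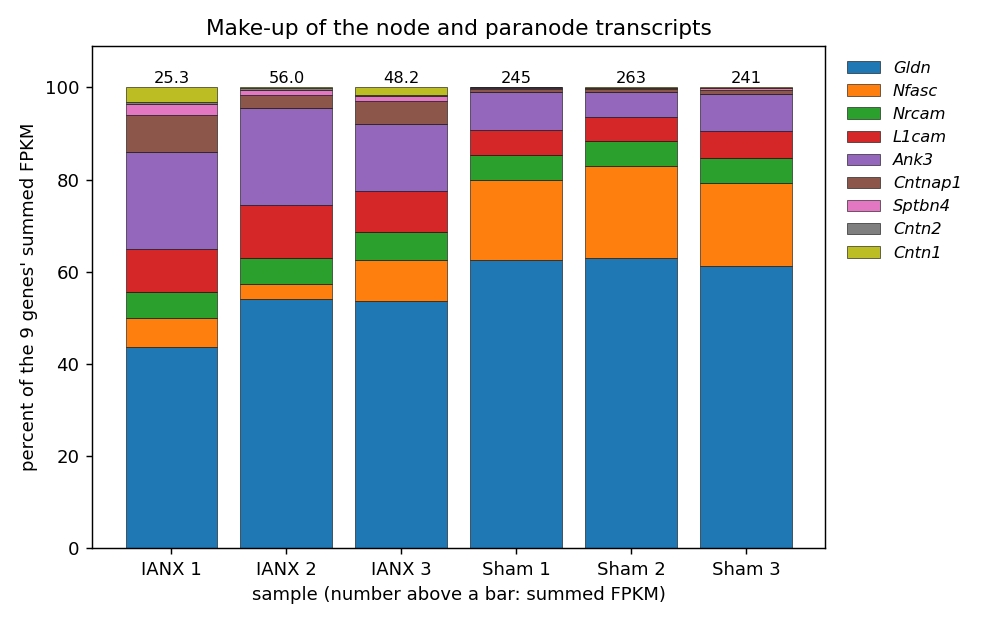
Stacked bars of each gene's percent of the summed FPKM of the 9 genes, 1 bar a sample, IANX left and Sham right, with the summed FPKM printed above each bar. The sums were 25.3, 56.0 and 48.2 in IANX, against 245, 263 and 241 in Sham, and Gldn was the largest share in every sample.

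Set against Sox10, a transcription factor of the Schwann cell lineage, the genes separated into those that stayed lower and those that did not, in a ratio chosen after the values were seen. Sox10 itself stood at 53.2, 215 and 99.6 CPM in IANX, against 419.6, 545 and 419 CPM in Sham (log2 fold change -1.91, edgeR adjusted p = 0.0195). Other genes of the lineage changed by other amounts. S100b was at -3.22 (edgeR adjusted p = 0.0114), and Erbb3 was not called (-1.07, edgeR adjusted p = 0.088). The split therefore holds for Sox10 as the divisor, and another divisor can place genes otherwise. Nfasc per Gldn in FPKM was 0.142, 0.0595 and 0.165 in IANX, against 0.278, 0.318 and 0.295 in Sham. Nrcam per Gldn was higher in every IANX sample, at 0.128, 0.103 and 0.111, against 0.0858, 0.0862 and 0.0877 in Sham. Ratios to genes other than Sox10 and Gldn were not tested. Nfasc per Sox10 in FPKM was 0.0922, 0.0254 and 0.134 in IANX, against 0.305, 0.287 and 0.313 in Sham, and Gldn per Sox10 was 0.649, 0.426 and 0.812 in IANX, against 1.10, 0.903 and 1.06 in Sham. Nrcam per Sox10 overlapped, at 0.0829, 0.0438 and 0.0901 in IANX and 0.0940, 0.0778 and 0.0930 in Sham, as did L1cam. Ank3 per Sox10 was 0.313, 0.166 and 0.219 in IANX, against 0.147, 0.0780 and 0.139 in Sham. Ratios that did not overlap gave p = 0.1 in a two-sided exact permutation test, the smallest that 3 against 3 samples allow.

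**Figure D3:**
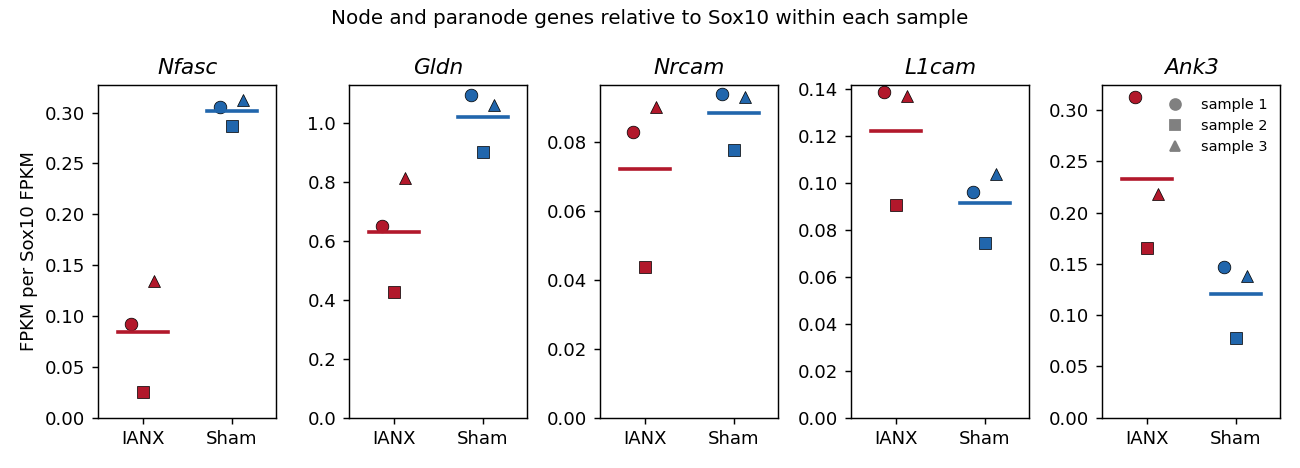
FPKM of the 5 genes called lower divided by the FPKM of Sox10 in the same sample, 1 point a sample and a line at the group mean, IANX left and Sham right. Nfasc lay at 0.0254 to 0.134 in IANX and 0.287 to 0.313 in Sham, and Nrcam overlapped.

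The other proteins of these domains were read from 6 lists of 69 genes, of which 66 were found and 48 tested. Of these, 18 were lower and 8 higher in IANX, and 22 were not called. The lower ones were 37.5%, against 16.6% of all genes tested. Over all genes tested 17.8% were higher, and 8 of 48 is near that share. The same 2 shares of all genes belong beside the counts of each list below, each of few genes. The plot of fold changes sets the 4 with the smallest p of each list beside the node and paranode genes.

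**Figure D4:**
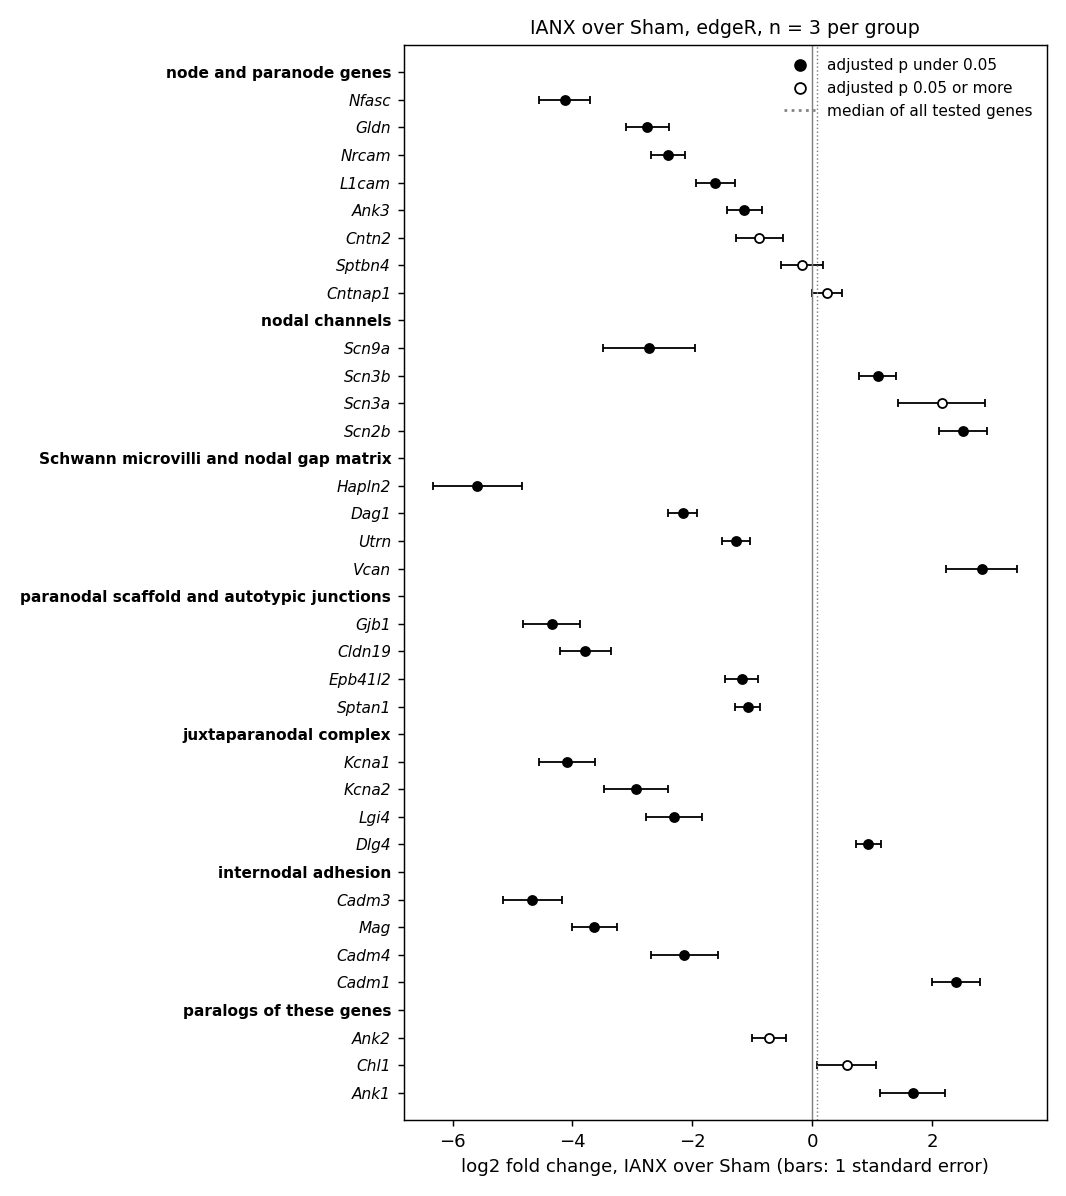
Log2 fold change of IANX over Sham from edgeR (n = 3 per group) for the 8 node and paranode genes tested and, from each of 6 partner lists, the 4 genes with the smallest p (3 for the paralogs), with bars of 1 SE, filled points for called genes and a dotted line at the median of all genes. Nfasc stood at -4.13 and Hapln2 at -5.59, while Vcan at 2.83 lay farthest to the right.

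Nodal ion channels had 9 of 15 genes tested, with 1 lower, 2 higher and 6 not called (median log2 fold change 0.94). The 1 lower gene was 11.1% of those tested, against 16.6% of all genes tested. Scn9a, a sodium channel of nociceptive neurons, was lower, at 0.226, 2.89 and 1.3 CPM in IANX, against 6.90, 15.2 and 7.31 CPM in Sham (log2 fold change -2.72, edgeR adjusted p = 0.031). Scn2b, a sodium channel beta subunit, was higher, at 5.21, 5.28 and 4.21 CPM in IANX, against 0.621, 0.666 and 1.26 CPM in Sham (2.52, edgeR adjusted p = 0.00431), as was the beta subunit gene Scn3b (1.09, edgeR adjusted p = 0.0319). The Scn9a value was -3.71 without IANX 2, and its call was lost without IANX 3 or without any single Sham sample. The Scn3b call was lost without IANX 2, IANX 3 or any single Sham sample. Scn3a was not called (2.16, edgeR adjusted p = 0.0545), and its value was 0.94 without IANX 1.

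Among genes of Schwann cell microvilli and the matrix of the nodal gap, 5 of 10 tested were lower and 1 higher (median -0.76). Dag1, the dystroglycan receptor for laminin, stood at 249, 399.5 and 346 CPM in IANX, against 1505, 1527 and 1425 CPM in Sham (-2.16, edgeR adjusted p = 0.00114), and Utrn, which links dystroglycan to actin, was lower too (-1.27, edgeR adjusted p = 0.00687). Hapln2, a link protein of nodal matrix, was at 0.453, 0.163 and 2.13 CPM in IANX, against 32.2, 48.1 and 51.3 CPM in Sham (-5.59, edgeR adjusted p = 0.00225), and at -7.13 without IANX 3. Vcan, the matrix proteoglycan versican, was higher, at 463, 87.65 and 150.1 CPM in IANX, against 35.7, 35.9 and 27.0 CPM in Sham (2.83, edgeR adjusted p = 0.0111). Without IANX 1 that value was 1.85, and the call was lost without Sham 2 (edgeR adjusted p = 0.0594) or Sham 3 (edgeR adjusted p = 0.0575).

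Of the paranodal scaffold and the junctions within a Schwann cell, 5 of 11 were lower (median -1.08). None was higher by edgeR or by DESeq2, nor at an unadjusted p under 0.05. The 5 lower genes included Gjb1, the connexin of myelin (-4.35, edgeR adjusted p = 0.00114), Cldn19, a claudin of Schwann cell tight junctions (-3.79, edgeR adjusted p = 0.00124), and the cytoskeletal genes Sptan1, alpha spectrin (-1.08, edgeR adjusted p = 0.00916), and Epb41l2, a band 4.1 protein (-1.18, edgeR adjusted p = 0.0154). The Epb41l2 call was lost without IANX 3, Sham 1 or Sham 3.

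The juxtaparanodal complex had 4 of 10 tested genes lower and 3 higher (median 0.19). The potassium channel genes Kcna1 and Kcna2 were lower. Kcna1 stood at 1.47, 3.87 and 2.61 CPM in IANX, against 54.75, 24.9 and 56.5 CPM in Sham (-4.09, edgeR adjusted p = 0.00124), and Kcna2 at 2.21, 4.47 and 5.87 CPM in IANX, against 40.6, 12.9 and 42.9 CPM in Sham (-2.94, edgeR adjusted p = 0.00714). Sham 2 was the lowest Sham sample for both. Lgi4, a Schwann cell ligand, was lower (-2.31, edgeR adjusted p = 0.00994, and -2.97 without IANX 2), and Dlg4, a scaffold protein, was higher (0.93, edgeR adjusted p = 0.0146), a call lost without Sham 2 or Sham 3.

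Internodal adhesion genes, which hold the myelin sheath to the axon between nodes, had 3 of 5 lower and 1 higher. Cadm3 (-4.68, edgeR adjusted p = 0.00101), Mag, the myelin-associated glycoprotein (-3.64, edgeR adjusted p = 0.000935), and Cadm4 (-2.14, edgeR adjusted p = 0.0239) were lower, and Cadm1 was higher at 73.9, 27.9 and 83.45 CPM in IANX, against 13.1, 9.91 and 12.0 CPM in Sham (2.40, edgeR adjusted p = 0.005). Cadm4 was at -3.10 without IANX 2, and its call was lost without IANX 3 or any single Sham sample. Cadm1 was at 1.26 with IANX 2, its lowest injured nerve, alone set against the Sham samples.

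Of 12 paralogs found for the node and paranode genes, 3 passed the filter and 1 was higher. Ank1, the ankyrin of red blood cells, was higher (1.68, edgeR adjusted p = 0.0492), whereas Ank3 was lower. The Ank1 call was lost without IANX 1, IANX 3, Sham 2 or Sham 3. Ank2 (-0.72, edgeR adjusted p = 0.0822) and Chl1 (0.58, edgeR adjusted p = 0.39) were not called, and Chl1 turned to -0.09 without IANX 2.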

How the data were processed

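RNA of rat IAN was sequenced from poly-A libraries in 3 IANX and 3 Sham samples, grouped by their titles. The authors aligned reads to rn6 with HISAT2 2.0.5 and deposited raw counts per gene from featureCounts 1.5.0-p3, beside their own FPKM. These FPKM do not equal counts over the summed counts of a sample and gene length. They carry a further scaling between samples that was not traced here, so the fits on FPKM are not free of a scaling choice. StringTie 1.3.3b and DESeq2 1.20.0 are also named in the submitters' processing notes. Strand and multi-mapping settings are not given in the sources used here, and other annotated genes overlapping these genes had at most 4 counts in a sample. The authors' own comparison columns (fold changes and p-values) were not used.

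Counts were tested with edgeR 4.0.16 (R 4.3.3, TMM, filterByExpr, glmQLFit and glmQLFTest, group as the only term, two-sided), which left 15374 of 34106 genes. FPKM was used for levels between genes and, as log2(FPKM + 1) or log2(FPKM + 0.1), with limma 3.58.1, in genes at 1 FPKM or more in 3 samples or without a filter. DESeq2 1.42.0, size factors, library sizes only, no filter, a replicate block, each replicate left out and IANX 2 alone were the other alternatives, 15 in all. Depth was 13988750 to 17105402 counts a sample, and counting error weighs most on genes with few counts. The text names every node and paranode gene found, the 4 genes with the smallest p of each partner list (3 where only 3 were tested), and marker genes. Scn1a, Scn11a and Cntn3 are named beside Cntn1 in addition. Some genes of the lists are not reported here and are left out of their counts and sums. The genes, lists and rules were chosen with earlier results of these data known.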

Additional observations from a re-analysis of the deposited data

How the results depend on the processing

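Nfasc, Nrcam, L1cam and Gldn were lower and past the threshold in all 14 alternatives with 2 or more samples in each group. Over all 15, their log2 fold changes were -4.74 to -3.66, -2.63 to -1.96, -2.02 to -1.08 and -3.05 to -2.31. The remaining alternative, IANX 2 alone, takes its spread from the Sham samples only and assumes that IANX samples vary alike. Of the node and paranode genes, 4 or 5 were called lower in every alternative, and 1 was called higher with DESeq2, without the filter and without IANX 2 (0 to 1 with each sample left out). Ank3 was at -0.70 with library sizes only, -0.60 in IANX 2 alone and -1.53 to -0.91 with each sample left out. Cntnap1 turned to -0.10 in IANX 2 alone. Sptbn4 was at 0.26 with library sizes only and -0.42 to 0.16 with each sample left out, and Chl1 at -0.094 without IANX 2 (-0.094 to 0.88 with each sample left out). The median of the node and paranode genes was -2.11 with limma on log2(FPKM + 0.1), where 6 passed the filter. Library sizes only moved the median of all genes to 0.53, with 5919 higher and 1468 lower calls, against 2734 and 2550. Partner genes called higher numbered 13 with library sizes only, 14 with DESeq2 and 2 to 15 with each sample left out, and those called lower 11 to 21. Where no cause is shown by the setting itself, the cause was not tested.

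No shared deviation of same-numbered samples was seen: their deviations from the group means correlated at 0.0811, -0.0105 and 0.106 over 15374 genes. Such correlations cannot show whether samples were handled in pairs. With the replicate block 4 node and paranode genes were lower, Ank3 being lost (-1.19, edgeR adjusted p = 0.0523), and 18 partner genes were lower and 7 higher. Of 339 fits of the 23 named partner genes, 296 kept their direction and side of the threshold, 35 lost a call, 7 gained one and 1 reversed. Cntn1 and Cntn2 had at most 57 and 23 counts in a sample, and the Cntn1 counts also differed widely among the IANX samples.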
